A study of Rattus norvegicus with 4 samples.

Results

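Genes of TGF-beta, BMP and activin signaling were examined in cells from cultures of rat olfactory ensheathing cells. The cells were sorted by their level of p75, the low-affinity neurotrophin receptor. The name is that of the cultures and not of each sorted population. Markers of microglia and macrophages were brighter in the cells with low p75, as given below. The set held 42 genes, chosen by name: 11 ligands, 12 receptors, 7 Smads, 5 targets, and 7 antagonists and latency proteins. Probes that were no controls were taken when their gene name in the scanner files, without a trailing tag for predicted or mapped genes, was one of the 42. All 42 were found, out of 35655 genes on the array, with 60 probes in 69 spots. Of these, 31 entered the test, which ran across 22193 genes.

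Cells with high p75 (p75High) were set against cells with low p75 (p75Low). Both populations came from cultures of male Fischer rats, whose age the labels do not give, and were sorted by flow cytometry to a stated purity of 98%. In each of 4 paired biological replicates the PCR-amplified cDNA of p75High cells was labelled with Cy5, that of p75Low cells with Cy3, and both were hybridised to 1 array, with no dye swap. Since the labels do not name the animals or cultures behind the replicates, the p-values speak only for the spread between these samples, and that spread may be technical. Values per array are log2 intensities, or log2 ratios of p75High over p75Low, on replicates 1 to 4 in that order, and means are given ± SD over the 4 arrays.

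Olfactory ensheathing cells are the glia of the olfactory nerve, and in culture they share many features with Schwann cells. Ligands of the TGF-beta family bind pairs of type I and type II receptor kinases. TGF-beta and activin receptors mainly phosphorylate Smad2 and Smad3, and BMP receptors mainly phosphorylate Smad1 and Smad5. These join Smad4 to act on genes such as the Id genes, while Smad6 and Smad7 and secreted antagonists damp the signal.

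None of the 31 tested genes passed the adjusted threshold of 0.05 in limma, in either direction. Of all genes tested, 0.311% were higher and 0.437% lower in p75High at that threshold, or 0.748% in all. At an unadjusted p under 0.05, 4 of the 31 were found, Tgfbr1 and Bmp4 with p75High lower and Tgfbr3 and Fst with p75High higher. That is 12.9% of the tested members, and over all genes the share was 5.82% for higher, 6.91% for lower and 12.7% in all. The ratio was above 0 on all 4 arrays for Tgfbr3, Smad3 and Fst and below 0 on all 4 for Tgfb1, Bmp4 and Tgfbr1, in all 6 members (19.4%). Over all genes these shares were 12.8%, 13% and 25.8%. Tgfb1 passed the filter on signal above background through p75Low alone, and Smad3 through p75High alone, which favours the sign each had. The median log2 ratio of p75High over p75Low was -0.03 over the tested members and -0.03 over all genes. The members' shares were thus near those of the whole array or under them.

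The arrays differed widely from each other. On an array, 22464 to 28062 probes stood clear of background in p75High and 23044 to 26174 in p75Low. Ngfr, the gene of p75, had log2 ratios of 6.07, 6.17, 5.02 and 5.96 on replicates 1 to 4, so every array matched its sort labels. Across genes, which are not independent replicates, arrays correlated at 0.18 to 0.25. In a simulation of p75High over p75Low with the spread of 22080 genes, the fit recovered 0 of 50 genes given a 4-fold change and 15 of 50 given a 16-fold change. A missed threshold therefore does not show that a member was alike in both populations. Intervals of 95% are given for Bmp2 and for the members whose log2 intensities are listed by array.

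Lists of cell type markers were read on the same arrays. All 16 microglia and macrophage markers had a negative mean ratio, 10 of them past the threshold, and their summed normalized intensity was 13558 to 22077 in p75High and 299489 to 477374 in p75Low. Of the 16 ensheathing and Schwann glia markers, Ngfr passed as higher, and the list summed to 60455 to 112583 in p75High and 5825 to 26130 in p75Low. The 10 tested fibroblast markers gave 0 past the threshold in limma (5 higher and 2 lower at an unadjusted p under 0.05), with sums of 228098 to 295844 in p75High and 33198 to 48159 in p75Low. Smooth muscle and pericyte markers (6 tested, 2 higher at an unadjusted p under 0.05), epithelial markers (5 tested, 1 higher) and neuronal markers (7 tested, 1 lower) also gave 0 past it. Of the macrophage markers, 15 or 16 were above background on every array in p75High and 16 in p75Low. In sorted bulk samples, fewer cells of a type and less RNA per cell cannot be told apart. The part of these markers in the values below was not tested.

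**Figure D1:**
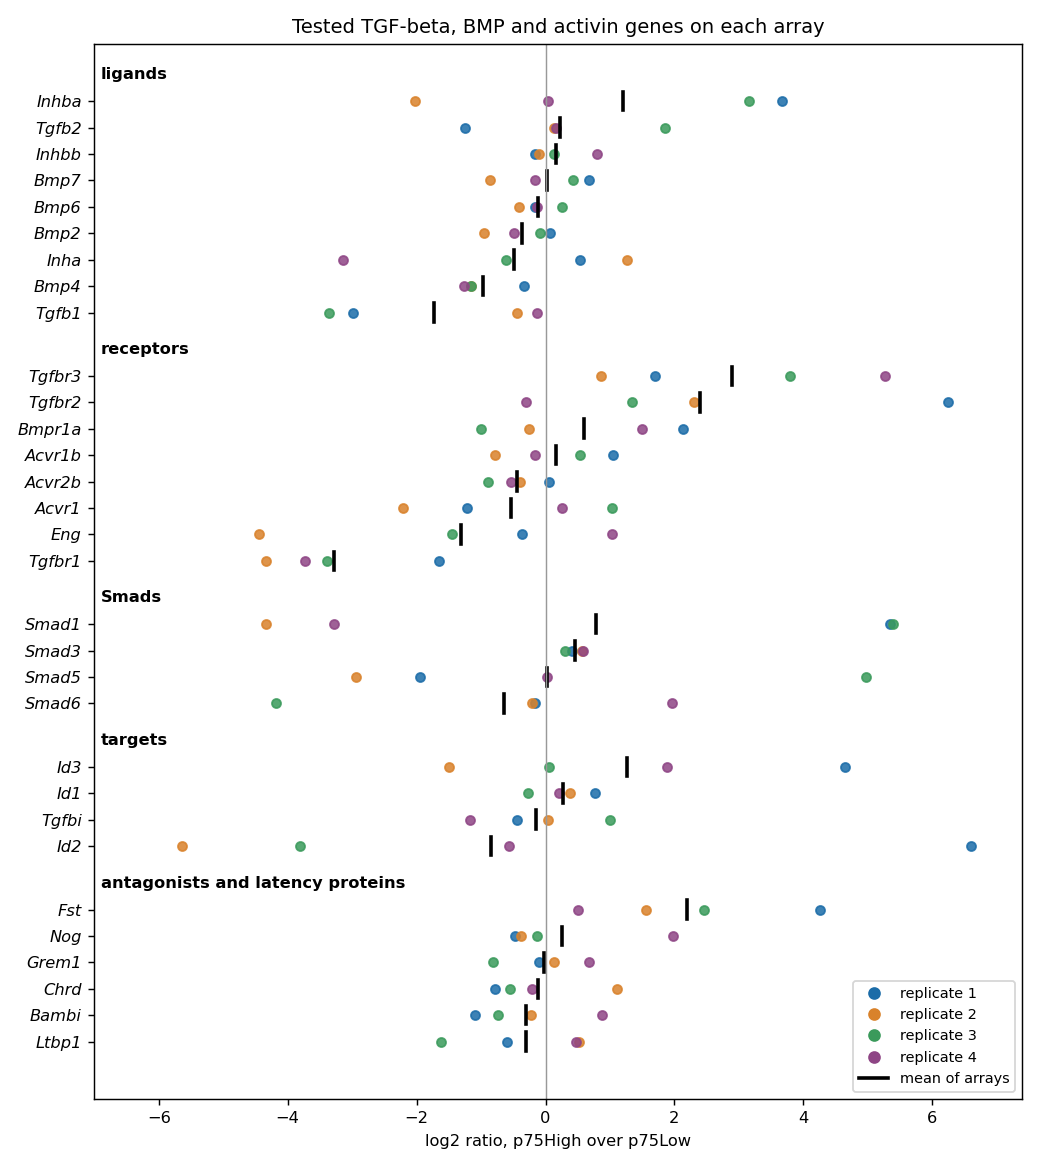
Log2 ratio of p75High over p75Low (x axis) for the 31 tested genes in 5 roles, 1 point per array coloured by replicate, with a bar at the mean. Tgfbr1 lies left of 0 and Tgfbr3 and Fst lie right of 0 on all 4 arrays, while Id2 and Smad1 spread over both sides.

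Among the ligands, 9 of 11 were tested. Tgfb1, which encodes the ligand TGF-beta 1, had log2 intensities of 6.89, 6.29, 6.18 and 6.38 in p75High and of 9.88, 6.74, 9.54 and 6.51 in p75Low on replicates 1 to 4. The p75Low samples were bright on replicates 1 and 3 and stood close to their p75High partners on replicates 2 and 4. The ratios were -2.98, -0.44, -3.35 and -0.13, with a mean of -1.73 ± 1.68 (SD, n = 4; limma adjusted p = 0.424). Their 95% interval ran from -3.63 to 0.17. This value averages 10 spots of 1 probe, which was well above background on 2 arrays in p75High and on 4 in p75Low. With the scanner's own log ratios the mean was -2.85.

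Bmp4, a BMP ligand that patterns neural and skeletal tissue, read 7.08, 7.09, 6.44 and 7.02 in p75High and 7.41, 8.24, 7.59 and 8.29 in p75Low as log2 intensity. Every p75High sample lay below every p75Low sample, which was so for 3.85% of all genes. The ratios were -0.33, -1.15, -1.15 and -1.27, a mean of -0.97 ± 0.43 (95% interval -1.80 to -0.15, limma adjusted p = 0.343). With the scanner's log ratios the mean was -1.69.

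Inhba, whose product forms activin A, split by array. It read 9.97, 6.37, 9.60 and 6.51 in p75High and 6.30, 8.40, 6.45 and 6.48 in p75Low on replicates 1 to 4. The p75High sample was the brighter on replicates 1 and 3, the p75Low sample on replicate 2, and the pair was level on replicate 4. The mean ratio was 1.21 ± 2.69 (95% interval -1.72 to 4.13, limma adjusted p = 0.662). It was 0.38 without replicate 1, 2.28 without replicate 2 and 0.56 without replicate 3.

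The other 6 tested ligand genes, Tgfb2, Bmp2, Bmp6, Bmp7, Inha and Inhbb, had mean ratios between -0.49 and 0.23, with SDs of 0.28 to 1.93. With the scanner's log ratios the means were 1.69 for Tgfb2, -1.43 for Bmp2 and -1.36 for Bmp6, and Tgfb2 averaged -0.31 without replicate 3. Inha encodes the inhibin alpha subunit and had its lowest ratio, -3.15, on replicate 4, with a mean of -1.08 without replicate 2 and 0.39 without replicate 4. Inhbb, for the activin beta B subunit, was among the steadier genes, at -0.16, -0.10, 0.12 and 0.80, and its second kept probe averaged -0.10 ± 0.41. Bmp2 was not well above background in p75High on any array and passed the filter through p75Low alone. With p75High readings raised to the dimmest signal well above background on each array, the mean level was 1.29-fold lower in p75High. The 95% interval of the fitted log2 ratio of Bmp2, -1.20 to 0.47, includes no change, so no minimum difference is set (limma adjusted p = 0.643). Tgfb3 and Bmp3 had no probe above background on enough arrays to be tested.

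The receptors held the members with the largest mean ratios in both directions. Tgfbr1, the type I kinase for TGF-beta, was dimmer in p75High on every array by its brightest probe. That probe had log2 intensities of 9.89, 7.30, 6.05 and 7.83 in p75High and of 11.55, 11.64, 9.44 and 11.56 in p75Low. The populations overlapped only through replicate 1 of p75High and replicate 3 of p75Low, and within each pair p75High was the lower. The ratios were -1.66, -4.34, -3.39 and -3.73, with a mean of -3.28 ± 1.15, a 9.72-fold lower level in p75High (SE 0.53, 95% interval -4.68 to -1.88). The limma adjusted p was 0.129, and over the other settings tried the adjusted p was 0.0807 to 0.365. A mean ratio this far from 0 in either direction was seen in 3.25% of all genes tested.

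Tgfbr1 carried 3 probes that passed the filter, and they lay far apart on its transcript, so their sequences show that the readings were made at separate sites. The 30 bases at the 5′ end of each 60-base probe are given, in lower case since no base is singled out.
Tgfbr1 probe at base 270: caatagcatgtgtatagctgaaatcgacct
Tgfbr1 probe at base 3100: gtatggcttttaaagtcctttttatcactg
Tgfbr1 probe at base 3921: gtggccaatactaaatatgaaaataactta
In the coordinates of the array file (rn4, plus strand) the probes lie at chr5:64008765-64008824, chr5:64031453-64031512 and chr5:64032274-64032333. Where in the gene model each of them lies, coding or untranslated, was not analysed here. The probe at base 270 is the brightest one described above. The probe at base 3100 had ratios of -3.29, -6.08, -5.63 and 0.15 (mean -3.71 ± 2.85), and the probe at base 3921 had -2.05, -1.61, -1.94 and -3.13 (mean -2.18 ± 0.66). Of the 12 readings, 11 were below 0, the exception being the middle probe on replicate 4. The 3 probes were read on the same 4 arrays and are not separate replicates. The probe at base 3921 was well above background on 1 array in p75High and on 4 in p75Low. It thus passed the filter through p75Low alone, which favours ratios below 0. Tested probe by probe, the limma adjusted p was 0.132, 0.347 and 0.150. The median ratio of the macrophage markers on the same arrays was -4.66, -5.21, -5.00 and -4.88.

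Tgfbr3, or betaglycan, is a co-receptor that presents TGF-beta to its kinases and binds inhibin. Its log2 intensities were 10.68, 12.05, 10.84 and 13.13 in p75High and 8.98, 11.20, 7.05 and 7.86 in p75Low. Within each pair p75High was brighter, by little on replicate 2 and by most on replicate 4. The ratios of 1.69, 0.85, 3.79 and 5.26 gave a mean of 2.90 ± 2.00, or 7.47-fold (95% interval 0.68 to 5.13, limma adjusted p = 0.32).

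Tgfbr2, the type II kinase that binds TGF-beta first, was uneven. It read 12.72, 12.58, 7.46 and 6.06 in p75High and 6.46, 10.27, 6.12 and 6.36 in p75Low, so its signal was high in p75High on replicates 1 and 2 and dim in both populations on replicate 4. The mean ratio was 2.40 ± 2.79 (limma adjusted p = 0.467), and 1.11 without replicate 1. The interval of -0.63 to 5.42 includes 0.

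**Figure D2:**
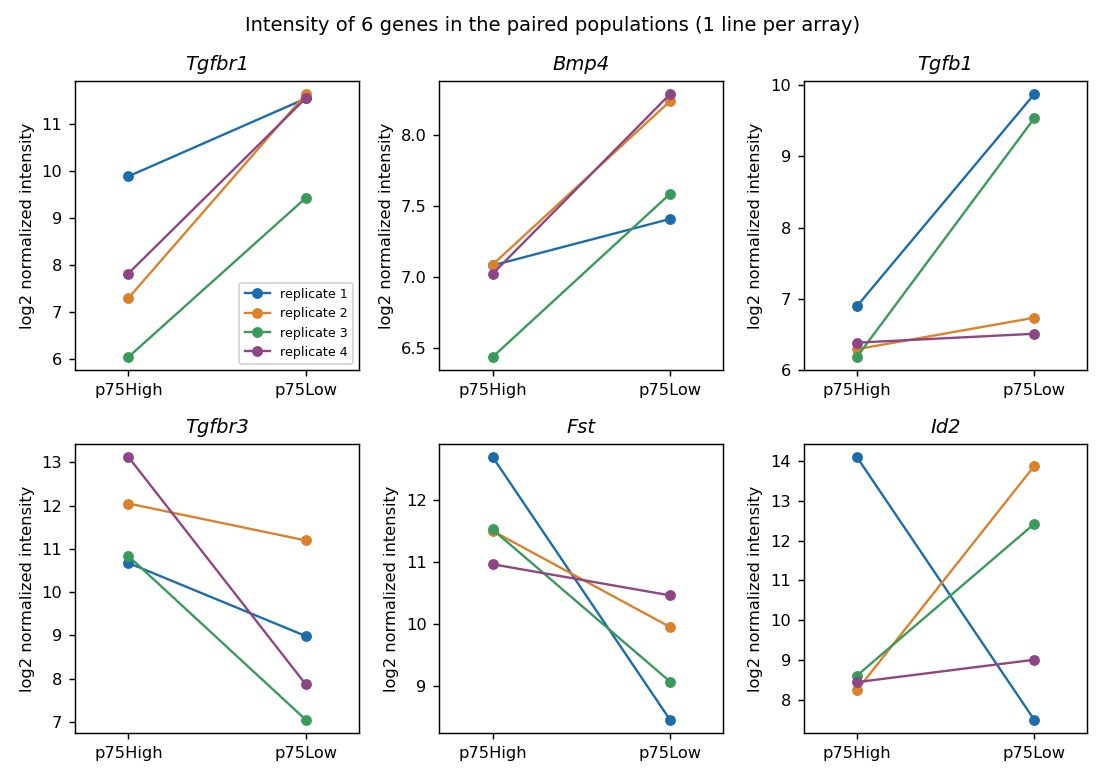
Log2 normalized intensity (y axis) of 6 genes, p75High on the left and p75Low on the right of each panel, 1 line per array. The lines of Tgfbr1, Bmp4 and Tgfb1 climb toward p75Low, those of Tgfbr3 and Fst climb toward p75High, and those of Id2 cross; each panel has its own scale.

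Like the receptors above, the remaining tested ones did not pass the adjusted threshold. Bmpr1a, a BMP type I kinase, Acvr1, Acvr1b and Acvr2b, kinases for activins and BMPs, and Eng, an endothelial co-receptor, had mean ratios between -1.31 and 0.60 (limma adjusted p of 0.571 to 0.883). Eng was the most variable of them, with -4.44 on replicate 2 and 1.03 on replicate 4, and its mean was -0.26 without replicate 2. Bmpr1a averaged 0.08 without replicate 1, and Acvr1 averaged -2.53 with the scanner's log ratios and 0.03 without replicate 2. Bmpr1b, Bmpr2 and Acvr2a had no probe that passed the filter.

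Acvrl1, a type I receptor known from endothelium, was left out because its only probe carried the scanner's mark for an uneven spot in the red channel, that of p75High, on all 4 arrays. With marked spots kept, its ratios were 1.66, 5.17, 3.00 and 5.24, a mean of 3.77 ± 1.75 (limma adjusted p = 0.175). All 4 ratios were above 0, and all 4 rest on marked spots. Of 6 tested endothelial markers, 0 passed in limma and 2 were higher at an unadjusted p under 0.05, and their sums were 1541 to 2855 in p75High and 738 to 1185 in p75Low.

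Of the Smads, 4 of 7 were tested. Smad1, which carries BMP signals, had log2 intensities of 11.49, 5.97, 12.08 and 6.83 in p75High and of 6.15, 10.31, 6.68 and 10.11 in p75Low. It was bright in p75High alone on replicates 1 and 3 and in p75Low alone on replicates 2 and 4. Its ratios were 5.35, -4.34, 5.40 and -3.29, with a mean of 0.78 ± 5.32 (95% interval -4.89 to 6.45, limma adjusted p = 0.89), which ran from -0.76 to 2.49 without 1 replicate. An SD that large was reached by 0.342% of all genes. The second probe of Smad1 did not pass the filter and read 1.47, 0.09, 1.31 and -0.13, again with replicates 1 and 3 above the others, on a narrower range.

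Smad3, which carries TGF-beta and activin signals, had the smallest SD of the tested members, 0.14. It read 6.39, 6.69, 6.44 and 7.08 in p75High and 5.98, 6.12, 6.15 and 6.50 in p75Low, with ratios of 0.41, 0.57, 0.30 and 0.58. The signal was well above background on all 4 arrays in p75High and on no array in p75Low. It passed the filter through p75High alone. With p75Low readings raised to the dimmest signal well above background on each array, the mean level was 1.35-fold higher in p75High. The 95% interval of the fitted log2 ratio, -0.23 to 1.16, includes no change, so no minimum difference is set (limma adjusted p = 0.518). With the scanner's log ratios the mean of Smad3 was 2.66 in place of 0.46.

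Smad6, an inhibitor of BMP signaling, read 6.55, 6.72, 8.27 and 9.28 in p75High and 6.72, 6.93, 12.44 and 7.32 in p75Low. A single bright p75Low sample, that of replicate 3, set its negative mean of -0.65 ± 2.56 (95% interval -3.44 to 2.15, limma adjusted p = 0.807), and without it the mean was 0.53. Smad5, the partner of Smad1, averaged 0.03 ± 3.51, with 4.97 on replicate 3 and -2.93 on replicate 2, and its mean was -1.62 without replicate 3. Smad2, Smad4 and Smad7 were well above background on at most 2 arrays in either population and were not tested.

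**Figure D3:**
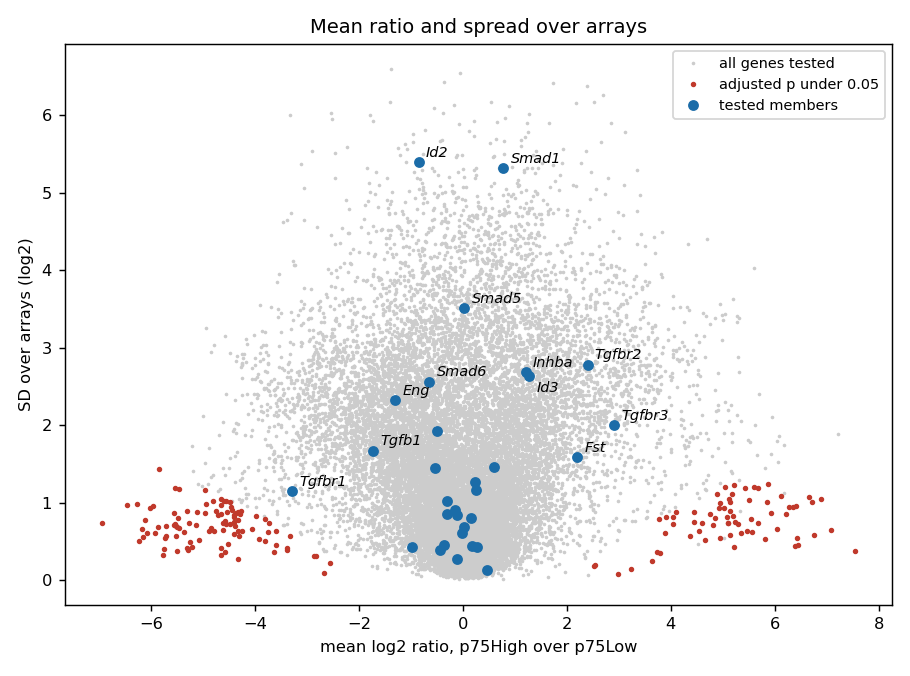
Mean log2 ratio of p75High over p75Low (x axis) against the SD over arrays (y axis) for all genes tested (grey), genes with adjusted p under 0.05 (red) and the 31 members (blue). Id2 and Smad1 stand at SDs of 5.39 and 5.32, and Tgfbr1 has the lowest mean ratio of the members.

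None of the 4 tested target genes had 1 sign on all 4 arrays. The Id proteins lack a DNA-binding domain and block basic helix-loop-helix factors, and Id1, Id2 and Id3 are widely used readouts of BMP signaling. Id2 had log2 intensities of 14.10, 8.24, 8.61 and 8.45 in p75High and of 7.50, 13.87, 12.42 and 9.01 in p75Low. Replicate 1 was bright in p75High, replicates 2 and 3 were bright in p75Low, and replicate 4 was near level. The ratios of 6.60, -5.63, -3.81 and -0.56 averaged -0.85 ± 5.39 (95% interval -6.60 to 4.89, limma adjusted p = 0.881), and the mean was 0.74 without replicate 2 and 0.13 without replicate 3. An SD of this size was reached by 0.293% of all genes.

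The pattern of Id2 was read at separate sites of its transcript. The first 30 bases of both kept probes are shown because both sites gave the wide swing between arrays.
Id2 probe at base 135: agcaaaaccccggtggacgacccgatgagt
Id2 probe at base 409: aggcgtctgaattcccttctgagcttatgt
They lie on the minus strand of rn4 at chr6:42783112-42783171 and chr6:42782548-42782897, and the second region spans 350 bases of genome for 60 bases of probe. The probe at base 409 had ratios of 5.56, -4.42, -4.45 and 0.11, against 6.60, -5.63, -3.81 and -0.56 at base 135. Replicate 1 was far above 0 and replicates 2 and 3 far below 0 at both sites. Replicate 4 was near 0 at both. Another probe of Id2 was too dim to be kept and read 0.07 to 0.36.

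Id3 gave another picture, since its 3 kept probes disagreed. The brightest, at base 571, had log2 intensities of 12.07, 8.64, 8.19 and 9.29 in p75High and of 7.43, 10.15, 8.14 and 7.41 in p75Low. The p75High sample was the brighter on replicates 1 and 4 and the dimmer on replicate 2. That probe had ratios of 4.65, -1.51, 0.05 and 1.88 (mean 1.27 ± 2.64, 95% interval -1.61 to 4.15, limma adjusted p = 0.642). Its mean was 0.14 without replicate 1 and 2.19 without replicate 2. The probe at base 318 had -0.55, 1.05, 0.80 and -1.80 (mean -0.12 ± 1.32), and the probe at base 335 had -1.08, 0.19, 0.55 and -0.73 (mean -0.27 ± 0.76). At bases 318 and 335 replicates 1 and 4 were below 0 and replicates 2 and 3 above it, while at base 571 replicates 1 and 4 were the highest. With the median over its probes, Id3 averaged -0.13. The first 30 bases of each probe show why the pair counts as nearly 1 site, with capitals marking the 13 printed bases that both hold.
Id3 probe at base 318: tccgcatctcccgatccAGACAGCTGAGCT
Id3 probe at base 335: AGACAGCTGAGCTcactccggaacttgtga
Id3 probe at base 571: cgagagcgaatgactgaacttgggtggcct
In all, the pair shares 43 of 60 bases. On the plus strand of rn4 they lie at chr5:154934456-154934630 and chr5:154934473-154934647, each spanning 175 bases, and the probe at base 571 lies at chr5:154935337-154935396.

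**Figure D4:**
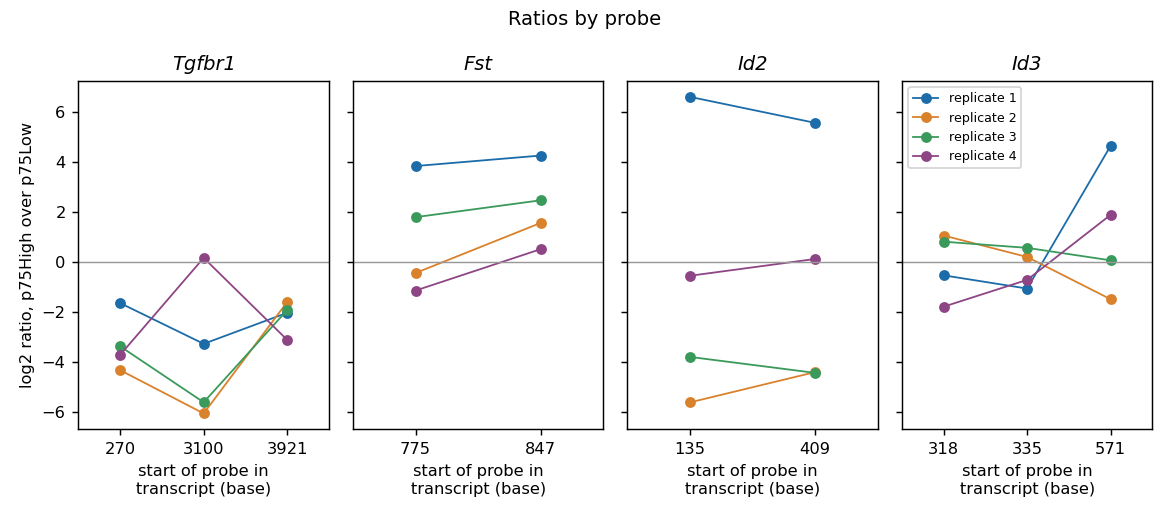
Log2 ratio of p75High over p75Low (y axis) at each kept probe of Tgfbr1, Fst, Id2 and Id3, placed in order of the probe's start in the transcript (x axis, bases, not to scale), with points of 1 array joined. The arrays keep their order between the probes of Fst, both probes of Id2 have replicate 1 highest and replicates 2 and 3 lowest, and the order changes between the probe of Id3 at base 571 and the pair at bases 318 and 335.

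Id1 was dim, with log2 intensities of 6.93, 8.31, 6.62 and 6.18 in p75High and of 6.17, 7.93, 6.89 and 5.97 in p75Low. Its probe was well above background on 3 arrays in p75High and on 2 in p75Low. Both populations were brightest on replicate 2. The ratios were 0.77, 0.38, -0.27 and 0.21, and the mean ratio was 0.27 ± 0.43 (95% interval -0.55 to 1.09, limma adjusted p = 0.722). With the scanner's log ratios the mean was 0.85. Tgfbi, a secreted matrix protein induced by TGF-beta, averaged -0.14 ± 0.91 by its brightest probe. Id4 had no probe that passed the filter.

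Among the antagonists and latency proteins, 6 of 7 were tested. Fst encodes follistatin, which binds activins and holds them from their receptors. Its log2 intensities were 12.70, 11.51, 11.53 and 10.97 in p75High and 8.45, 9.95, 9.07 and 10.47 in p75Low. Every p75High sample lay above every p75Low sample, as for 3.87% of all genes. The ratios were 4.25, 1.55, 2.46 and 0.50, with a mean of 2.19 ± 1.59, or 4.57-fold (95% interval 0.38 to 4.01, limma adjusted p = 0.338). Replicate 1 gave the widest gap and replicate 4 the narrowest, and the mean was 1.51 without replicate 1.

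A second probe of Fst, starting upstream of the first, gave lower ratios. The first 30 bases of both are shown, since the probes differed in sign on replicates 2 and 4. The cause of that difference was not tested.
Fst probe at base 775: atttcaaggttggcagaggtcgctgctctc
Fst probe at base 847: tctgtgccagcgacaatgccacgtacgcca
They lie on the minus strand of rn4 at chr2:46543299-46543358 and chr2:46543227-46543286. The probe at base 775 had ratios of 3.83, -0.45, 1.78 and -1.16 (mean 1.00 ± 2.26, limma adjusted p = 0.672), against 4.25, 1.55, 2.46 and 0.50 at base 847. The order of the arrays was the same, and 2 of the 4 ratios were below 0 at base 775.

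Like Fst, the remaining tested genes of this role did not pass the adjusted threshold. Bambi, a decoy receptor without a kinase, read 7.20, 7.89, 7.58 and 8.75 in p75High and 8.30, 8.12, 8.32 and 7.87 in p75Low, a mean ratio of -0.30 ± 0.86 (95% interval -1.44 to 0.84, limma adjusted p = 0.78). Ltbp1, which tethers latent TGF-beta to the matrix, read 7.04, 8.14, 7.01 and 8.08 in p75High and 7.64, 7.62, 8.64 and 7.60 in p75Low, a mean ratio of -0.31 ± 1.02 (95% interval -1.58 to 0.97, limma adjusted p = 0.799). Both genes had ratios on either side of 0. The BMP antagonists Nog, Chrd and Grem1 had mean ratios of 0.25, -0.11 and -0.03, with limma adjusted p of 0.855 to 0.978. Ltbp2, a relative of Ltbp1, was not tested.

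Many members varied widely between arrays. An SD of 2 or more on the log2 scale was found for 9 of the 31 tested members (29.0%), namely Inhba, Tgfbr2, Tgfbr3, Eng, Smad1, Smad5, Smad6, Id2 and Id3, against 27.8% of all genes tested. The median SD was 1.16 over the members and 1.14 over all genes. Member ratios correlated between arrays at -0.11 to 0.32 over 31 genes, which share their arrays and dye order, and all genes at 0.18 to 0.25. The members' spread was close to that of the array as a whole. By array, 15, 11, 15 and 17 of the 31 ratios were above 0 on replicates 1 to 4. Of the 31, 5 passed the filter through p75Low alone (Tgfb1, Bmp2, Bmp6, Acvr1 and Smad1) and 3 through p75High alone (Tgfb2, Smad3 and Id1). The matching shares over all genes were not computed.

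Other genes of the pathway were read from a list of 84 names, of which 69 were on the array and 54 were tested. At an unadjusted p under 0.05 in limma, 5 of the 54 were higher and 5 lower in p75High, and the median ratio was 0.20. Over all genes tested, 5.82% were higher, 6.91% lower and 12.7% either at that p, and the median was -0.03.

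The genes of that list described here did not pass the adjusted threshold. Fstl1, a secreted relative of follistatin, had ratios of 4.40, 5.50, 0.22 and 3.98 (mean 3.52 ± 2.29, limma adjusted p = 0.304). Tsc22d1, named for its induction by TGF-beta, had 0.67, 5.64, 4.53 and 1.85 (mean 3.17 ± 2.31, adjusted p = 0.326). Col1a1, for the alpha 1 chain of type I collagen, had 1.52, 4.39, 2.40 and 2.61 (mean 2.73 ± 1.20, adjusted p = 0.192). These 3 genes were above 0 on every array. The median ratio of the fibroblast markers on the same arrays was 2.30, 0.16, 0.93 and 2.14, and their part was not tested. Col1a2, for the partner chain of Col1a1, was chosen after its values were seen, and like Col1a1 it is also on the fibroblast list. It was below 0 on every array, at -1.40, -2.82, -1.89 and -4.75 (mean -2.71 ± 1.48, adjusted p = 0.259).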

How the data were processed

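Agilent rat arrays of design 014879 were read, per the file headers, with Feature Extraction 10.5.1.1, which the submitters' processing notes give as 10.5. The deposited intensity values were mean spot and median local background brightness per channel. The deposited log10 ratios (red over green) were computed by the scanner software after background subtraction, spatial detrending and dye normalization, per the file headers, and the authors' value table held the same ratios (largest difference 0, column medians 0). The deposited flags mark outliers and signal well above background. Coordinates carry the header's build, rn4. Per the labels, 250 ng of PCR-amplified cDNA was labelled for each channel.

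In limma 3.58.1 (R 4.3.3), intensities were corrected with normexp (offset 50) and loess (span 0.3) within arrays. Controls (1639 spots) had weight 0, and 1112 of 173516 readings (0.641%) marked as outliers were left out. Repeat spots were averaged. Probes had to be well above background on 3 or more of the 4 arrays within 1 channel (24941 of 41012 probes, 40 of 60 member probes), and each gene was read from its brightest such probe. All 4 arrays lay on 1 slide. Intensities per population are after loess and Aquantile scaling. Names were updated through RefSeq's GRCr8 table (21503 probes unmatched), which left all 42 member names the same. The log2 ratio was tested against 0 with lmFit and eBayes, two-sided, with Benjamini-Hochberg adjustment over 22193 genes. The 2 channels of an array are 1 replicate, as the design text states. Deviations from the group means correlated at 0.13, 0.06, 0.07 and 0.26 between channels of the same array and at most 0.05 between arrays. The fit was tested on simulated data.

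Genes with values on each array were members past the threshold, members with 1 sign on all arrays, the 3 of largest mean ratio per role, and, since fewer than 4 other pathway genes passed, the 4 of these with the largest mean ratio among those of 1 sign. The result of 1 of these pathway genes is not reported here. Members, lists and rules were chosen with earlier results of these data known. Alternatives were no background correction, the scanner's log ratios, median centring, no filter, a filter on all 4 arrays, outlier spots kept, the median over probes, each probe by itself, no replicate block, and leaving out each replicate. With each probe by itself, the range given for a gene uses its brightest probe.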

Additional observations from a re-analysis of the deposited data

Results flagged for a closer look

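In 8 of 59 member probes, 1 array stood apart from the other 3 by more than the 95% limit for a group of 4. For normally distributed values chance gives about 1 in 20. The share over all probes of the array was not computed, so the count shows no excess particular to these genes. Among genes tested, Nog read 1.98 on replicate 4 and -0.48 to -0.13 on the others, and Bmp4 read -0.33 on replicate 1 and -1.27 to -1.15 on the others. The other 6 were probes that did not pass the filter on dim signal. Tgfbi by its second probe read 6.63 on replicate 2, against -0.11 to 0.08 on the others. Ltbp2 read 6.12 on replicate 4, against -0.08 to 0.17. Tgfb3 read -4.39 on replicate 4, against -0.49 to 0.16. Acvr2a by 1 probe read 2.60 on replicate 3, against -0.14 to 0.32. Smad7 read -2.25 on replicate 1, against -0.10 to 0.01. Id2 by its dimmest probe read 0.36 on replicate 3, against 0.07 to 0.08. Each value is the log2 ratio, p75High over p75Low.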

How the results depend on the processing

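No member passed the adjusted threshold in limma under any of the 13 alternatives, and 1 to 6 members had an unadjusted p under 0.05. In the main fit these were 4 of 31 members, or 12.9%, against 12.7% of all genes. The shares over all genes under each alternative are not given, so the range is not read as an excess of members. Over all genes, 69 were higher and 97 lower in p75High at the adjusted threshold in the main fit. The counts were 37 and 52 with dim probes left in, 111 and 154 with the scanner's log ratios, 152 and 156 with no replicate block (the pairing ignored), and 0 and 0 without any 1 of the replicates (1885 to 2374 genes at an unadjusted p under 0.05). Ngfr then averaged 5.68 to 6.07 (adjusted p of 0.0964 to 0.138). The median over members moved to 0.18 with median centring, which put the median of all genes at 0.13, and without 1 replicate it ran from -0.045 to 0.24, highest without replicate 2. Tgfbr1 stayed between -3.98 and -2.93, Tgfbr3 between 2.11 and 3.58, Fst between 1.51 and 2.76 and Bmp4 between -1.69 and -0.77. These ranges leave out the dimmer kept probes read alone, which averaged -3.71 and -2.18 for Tgfbr1 and 1.00 for Fst. Of the 31 tested members, 16 changed sign in their mean under at least 1 alternative. The share over all genes was not computed, so this count is not set apart from the rest of the array. Among members with values on each array these were Id2 (0.74 without replicate 2, 0.13 without replicate 3, range without 1 replicate -3.34 to 0.74), Id3 (-0.13 with the median over probes), Ltbp1 (0.13 without replicate 3, range -0.58 to 0.13), Smad1 (-0.74 and -0.76 without replicates 1 and 3, range -0.76 to 2.49) and Smad6 (0.53 without replicate 3, range -1.52 to 0.53). The other 11 were Acvr1, Acvr1b, Bmp7, Chrd, Grem1, Inha, Inhbb, Nog, Smad5, Tgfb2 and Tgfbi. The cause was not tested. With the filter on all 4 arrays 8 members gave no value, Bmp2, Bmp6, Inhba, Tgfbr2, Acvr1, Acvr1b, Smad1 and Id1. Smad3 in p75Low and Bmp2 in p75High were not well above background on any array, which limits their ratios. Because p75High carried Cy5 throughout, dye and population cannot be told apart.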

Other observations

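Some pathway genes outside the rule for named genes had ratios below 0 on every array, and they were chosen after their values were seen. Rgma, a repulsive guidance molecule that also serves as a BMP co-receptor, had log2 ratios of p75High over p75Low of -1.49, -1.65, -2.22 and -1.55 (mean -1.73 ± 0.34, limma adjusted p = 0.145). Gdf5, a BMP-type ligand of joint development, had -1.15, -2.00, -1.78 and -0.99 (mean -1.48 ± 0.49, adjusted p = 0.227). Inhbe, for the activin beta E subunit, had -0.30, -2.92, -2.08 and -2.78 (mean -2.02 ± 1.20, adjusted p = 0.304). None of the 3 passed the threshold.

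Bmp1, a protease that cleaves procollagens and the BMP antagonist chordin, had ratios of 0.27, 1.76, 1.39 and 2.60 (mean 1.50 ± 0.97, adjusted p = 0.332). Gdf11, a ligand that signals through activin receptors, had 0.21, 0.72, 0.71 and 1.37 (mean 0.75 ± 0.47, adjusted p = 0.429). Both were above 0 on every array and did not pass.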
